A study of Mus musculus with 4 samples.

Results

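The late replicating domains described here are stretches of the mouse genome that were copied late in S phase on every one of 4 arrays. The autosomes were divided into bins of 200 kb, and a bin was a member when its timing was at or below -0.6 on all 4 arrays. Timing was taken as early over late S phase signal on the log2 scale, averaged over the probes of a bin and set to 0 at the median autosomal probe of that array, so a lower value means later replication. At -0.6, late signal exceeded early signal 1.52-fold relative to that median. Of 11314 autosomal bins with at least 5 probes, 2484 met the rule, which is 22% of bins and 496.8 Mb of DNA. The mirror rule, timing at or above 0.6 on all 4 arrays, took 2066 bins (18.3%), and 6764 bins met neither. The members were selected on the timing values of these same arrays, so their timing is given as a description, with no test.

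Mammalian chromosomes replicate in large domains, each with its own time in S phase. Late domains are usually poor in genes, rich in AT bases and in LINE elements, carry repressive chromatin, and often lie against the nuclear lamina or around nucleoli, whereas early domains are gene rich and open. The Suv4-20h enzymes are histone methyltransferases that add further methyl groups to a histone H4 lysine that already carries one, and the mark with the most methyl groups is typical of heterochromatin.

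The cells were embryonic fibroblasts of the mouse, a cultured connective tissue cell type, kept here at low oxygen. BrdU, a nucleotide analogue that marks DNA as it is made, was given at 50 µM over 1 hour, and 80000 cells were sorted by their stage of S phase. Marked DNA of the early sort (in Cy3) and of the late sort (in Cy5) was amplified and hybridised together on 1 array. In KO cells the labels state that a floxed Suv4-20h1 allele was deleted, which the protocol attributes to 4-hydroxytamoxifen (1 mM, 24 hours), and were set against control cells. Cells of an induced suv4-20h mutant, whose induction the labels do not describe, were set against non-induced cells of that mutant. Each of the 4 groups had 1 array, and the labels give the cell line differently in different fields, so the arrays cannot be said to come from separate clones or cultures. KO and control shared 1 slide, and induced and non-induced shared another, so a difference between slides cannot be told apart from one between the pairs. Dyes were not swapped on any array. With 1 array in each group no spread between cultures was measured, no test between conditions was possible, and every SD or SE below describes bins or probes within arrays. Genomic DNA gives no expression markers, so the labelled cell type was not checked, and the deleted allele was not located here.

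The arrays had 174305 genomic spots each, of which 154 to 447 carried an outlier flag and were left out. Above local background, the median raw signal was 144 to 209 units for early DNA and 222 to 436 units for late DNA. Probes printed several times had a median SD of 0.12 to 0.16 on the log2 scale within an array. The range of autosomal bins, taken from the 10th to the 90th percentile, was 2.32 in KO and 1.82 in control cells, and 2.70 in induced and 2.08 in non-induced cells. The wider range of the KO and induced arrays touches every difference given below, so the differences between arrays are also given after each array was scaled to the same range.

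All 4 arrays placed the members deep in the late part of their range, though at different depths. In KO cells the members ran from -2.18 through a median of -1.23 to -0.60, and in control cells from -1.59 through -0.88 to -0.60. In induced cells they ran from -2.54 through a median of -1.48 to -0.62, and in non-induced cells from -2.05 through -1.06 to -0.60. Medians were thus lowest in induced and highest in control cells, and the ranges of all arrays overlapped widely. Timing at or below -1 was reached by 1965 members (79.1%) in KO and 710 (28.6%) in control cells, and by 2248 (90.5%) in induced and 1462 (58.9%) in non-induced cells. The arrays stood in the same order in the neither class, where 20.9% reached it in KO, 0.946% in control, 24.8% in induced and 6.98% in non-induced cells. That order is therefore not particular to the members, and these shares are as measured. The bins early on all arrays were more alike between arrays, with medians of 0.90 in KO, 0.88 in control, 1.09 in induced and 0.91 in non-induced cells.

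**Figure D1:**
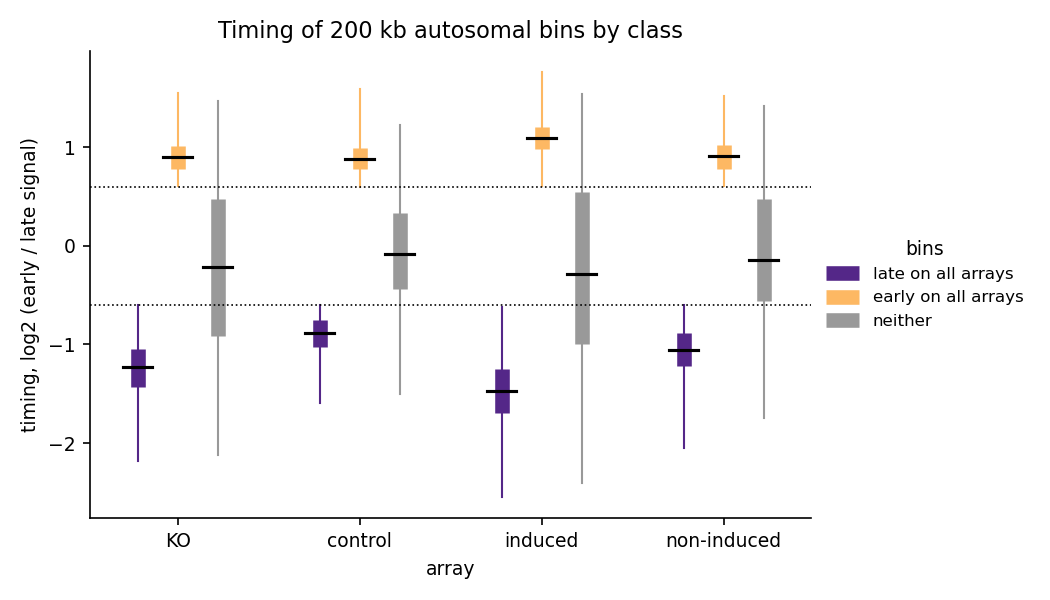
Timing (log2 of early over late signal) of autosomal 200 kb bins on each array, for bins late on all arrays, early on all arrays and neither. Thin lines span the lowest to highest bin, thick bars the 25th to 75th percentile, black ticks the median, and dotted lines mark -0.6 and 0.6. Late bins had medians of -1.23 in KO, -0.88 in control, -1.48 in induced and -1.06 in non-induced cells, while the medians of early bins lay between 0.88 and 1.09.

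The control array set the membership more than any other. Taken alone, 4993 bins (44.1%) were at or below -0.6 in KO and 3291 (29.1%) in control cells, and 5246 (46.4%) in induced and 3973 (35.1%) in non-induced cells. The members made up 49.8% of the bins late in KO, 75.5% of those late in control, 47.4% of those late in induced and 62.5% of those late in non-induced cells. Control was the least late array in 1654 members (66.6%), and induced the latest in 1804 (72.6%). Most bins that narrowly failed the rule did so through control. Of the bins late on 3 arrays, 827 missed on control alone, 276 on non-induced, 236 on KO and 11 on induced alone, and 784 of the 827 were still below 0 on control, with a median of -0.42 there. The 5 bins just inside the threshold and the 5 just outside had a deciding array at -0.60 on both sides, which was control in all but 2 of them. Of these exceptions, chr12:58000001-58200000 was inside through KO (-0.60), with control at -0.71, induced at -1.73 and non-induced at -0.85. The bin chr2:55000001-55200000 was outside through non-induced (-0.60), with KO at -1.40, control at -0.90 and induced at -1.19.

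Membership held up over separate probes of the same arrays. When alternate probes along the genome were split in 2 sets, 10300 bins had at least 3 probes in each, and 2046 of them met the rule by the odd probes. By the even probes, 1643 of these (80.3%) met it again, and 2041 (99.8%) were below 0 on all 4 arrays. The even probes gave means of -1.19 in KO and -0.87 in control, and of -1.44 in induced and -1.04 in non-induced cells, which was 0.04 to 0.05 above those of the odd probes that had done the choosing.

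Late bins lay on every autosome, in unequal shares. Chromosome 3 had the highest share, with 226 of 743 measured bins (30.4%), followed by chromosomes 13 and 2 (27.1% each) and chromosome 10 (25.7%). Chromosome 11 had the lowest, with 68 of 578 bins (11.8%), and it had the highest share of bins early on all arrays, 178 bins (30.8%). Late bins outnumbered early bins on 14 of 19 autosomes. Members of chromosome 3 averaged -1.28 in KO and -0.98 in control cells, and -1.49 in induced and -1.05 in non-induced cells. Those of chromosome 11 averaged -1.18 in KO and -0.85 in control cells, and -1.37 in induced and -1.03 in non-induced cells. Late bins of chromosome 3 were thus slightly later on each array than those of chromosome 11, beside being more frequent. In non-induced cells the mean of chromosome 3 (-1.05) was not below that of all members (-1.06).

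**Figure D2:**
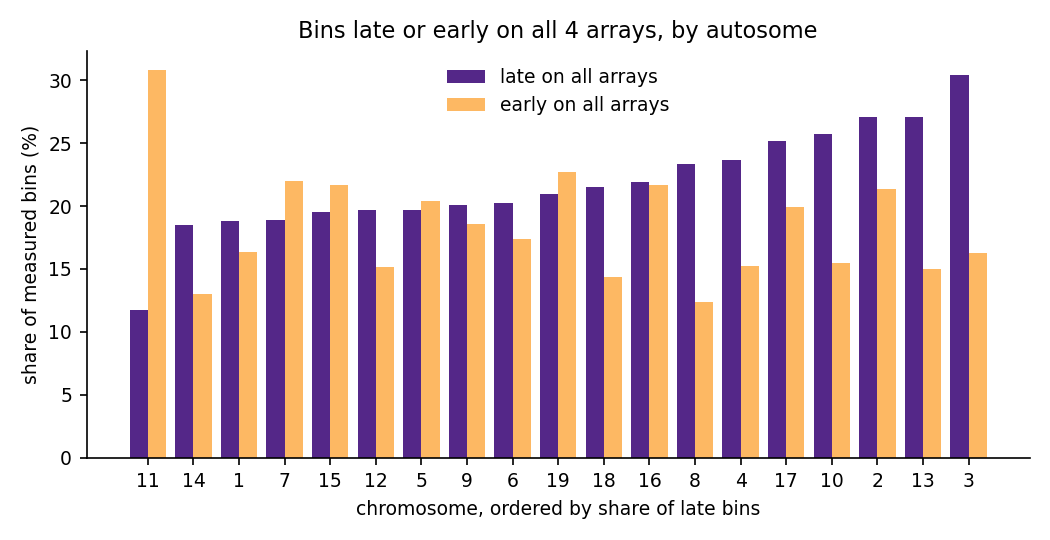
Share of measured 200 kb bins (%) that were late on all 4 arrays or early on all 4 arrays, for each autosome, ordered by the share of late bins. Chromosome 11 lies at one end with 11.8% late and 30.8% early bins, and chromosome 3 at the other with 30.4% late bins.

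Members were more frequent near the start of the chromosomes, which in mouse autosomes is the centromeric end. When the bins of each autosome were placed in 10 equal parts by position, 358 of 1114 bins (32.1%) in the first part were late on all arrays, and 187 of 1163 (16.1%) in the last part. The parts between held 17.6% to 24.7%. The median distance of a member to the nearest bin early on all arrays was 2.4 Mb, against 1.2 Mb for the bins that were neither late nor early on all arrays. The rules largely set this order, since bins of middle timing lie between late and early ones by definition.

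Adjacent members formed 919 runs with a median length of 0.4 Mb. Single bins made up 319 runs (34.7%), while the 134 runs of 5 or more bins held 899 members (36.2%) and 13 runs reached 2 Mb. When runs were joined across 1 bin that missed the rule or had under 5 probes, 721 runs with a median length of 0.6 Mb remained, the longest being chr13:81400001-86400000 at 5 Mb. Bins in the longest class of runs were later on average than single bins on every array, and by the least in non-induced cells. Runs of 10 or more bins averaged -1.35 in KO and -1.0033 in control cells, and -1.53 in induced and -1.04 in non-induced cells. Single bins averaged -1.16 in KO and -0.83 in control cells, and -1.31 in induced and -0.99 in non-induced cells. The length of a run and the lateness of its bins come from the same values as the rule, so these are descriptions only.

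The longest unbroken run was chr4:16200001-19600000, 3.4 Mb long with 168 probes. Its mean timing was -1.45 ± 0.05 in KO and -1.03 ± 0.03 in control cells, and -1.44 ± 0.05 in induced and -0.98 ± 0.04 in non-induced cells (SE over probes). Here and below, the mean of a run is over its bins and the SE over its probes. As measured, KO and induced were close together there, as were control and non-induced, but these arrays differ in range. After scaling, KO minus control was -0.13 and induced minus non-induced -0.14 in this run, against -0.42 and -0.46 as measured. Likeness of KO with induced and of control with non-induced was not read after scaling. Late DNA went on beyond it on both sides, since the 5 bins to its left averaged -1.12 in KO, -0.94 in control, -1.20 in induced and -0.83 in non-induced cells. The run chr6:55800001-59000000, 3.2 Mb long with 239 probes, averaged -1.19 ± 0.03 in KO and -0.87 ± 0.02 in control cells, and -1.42 ± 0.04 in induced and -1.03 ± 0.03 in non-induced cells. The 5 bins on its left were above 0 on 3 arrays, at 0.26 in KO, 0.49 in induced and 0.41 in non-induced cells, and the 5 on its right were below 0 on each, at -0.60 in KO, -0.63 in control, -0.65 in induced and -0.49 in non-induced cells. The run chr15:22200001-25000000, with 128 probes over 2.8 Mb, averaged -1.43 ± 0.05 in KO, -1.11 ± 0.04 in control, -1.42 ± 0.07 in induced and -0.97 ± 0.04 in non-induced cells, and was followed by DNA above 0, the 5 bins to its right averaging 0.45 in KO, 0.64 in control, 0.77 in induced and 0.67 in non-induced cells.

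Several of the 12 longest runs stood on the same chromosomes, 3 of them on chromosome 3. The runs chr3:113200001-115200000 and chr3:117000001-119400000 enclosed a stretch well above 0. The 5 bins after the first run averaged 0.89 in KO, 0.80 in control, 0.68 in induced and 0.64 in non-induced cells. The 5 bins before the second averaged 0.75 in KO, 0.61 in control, 0.61 in induced and 0.58 in non-induced cells. Timing thus turned from below -0.6 to above 0 and back within a few megabases on all 4 arrays. The first of these runs was among the latest of the genome too, at -1.69 ± 0.04 in KO and -1.23 ± 0.04 in control cells, and -1.73 ± 0.07 in induced and -1.16 ± 0.05 in non-induced cells (100 probes). A run with timing above 0 on both sides was chr17:76400001-78400000 (55 probes), which averaged -1.48 in KO, -1.05 in control, -1.56 in induced and -1.09 in non-induced cells. Its left flank lay between 0.25 and 0.28 on the 4 arrays and its right flank between 0.50 and 0.77.

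**Figure D3:**
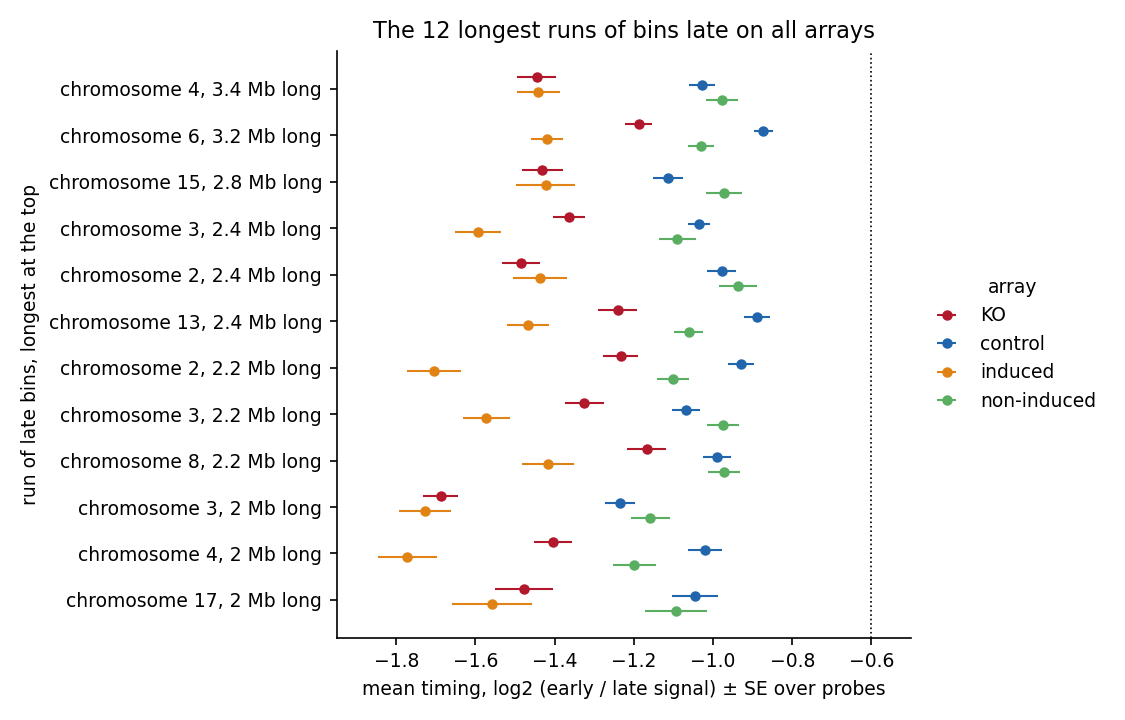
Mean timing (log2 of early over late signal) of the 12 longest runs of adjacent late bins on each array. Points are means over the bins of a run, bars are SE over its probes, and the dotted line marks -0.6. As measured, without scaling, KO lies left of control and induced left of non-induced in all 12 runs.

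The other long runs were chr2:46800001-49200000, chr13:21400001-23800000, chr2:141200001-143400000, chr3:62000001-64200000, chr8:67600001-69800000 and chr4:12600001-14600000. Over the 12 longest runs the means lay between -1.69 and -1.17 in KO and between -1.23 and -0.87 in control cells, and between -1.77 and -1.42 in induced and between -1.20 and -0.94 in non-induced cells. As measured, induced was the latest array in 9 of the 12 and KO in 3. After scaling, induced was below non-induced in all 12 and KO below control in 10. In the 134 runs of 5 or more bins, the SD over bins within a run was 0.26 in KO and 0.17 in control cells, and 0.31 in induced and 0.22 in non-induced cells, and the SD between run means, each over 5 or more bins, was 0.15 in KO and 0.10 in control cells, and 0.14 in induced and 0.12 in non-induced cells. The median SE over the probes of a run was 0.05 to 0.08.

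Ranked by mean timing over the 4 arrays, the latest run of at least 3 bins was chr2:23200001-23800000. It averaged -1.65 ± 0.09 in KO and -1.03 ± 0.07 in control cells, and -1.87 ± 0.13 in induced and -1.33 ± 0.10 in non-induced cells (SE over 28 probes). The next, chr16:51000001-51800000, averaged -1.61 in KO, -1.05 in control, -1.93 in induced and -1.28 in non-induced cells. As measured, induced was the latest array in all 12 of the latest runs, and control was the least late in 8. After scaling, induced was below non-induced in 11 of the 12 and KO below control in 8. The least late array as measured was non-induced in the other 4, among them chr8:6800001-7600000. There KO (-1.41) and control (-1.39) were nearly equal and induced (-1.89) and non-induced (-0.94) far apart. After scaling, KO minus control was 0.35 in that run and induced minus non-induced -0.55. The order of all 4 arrays in a run is given as measured only. The single bin with the lowest mean over the arrays was chr18:50800001-51000000, at -1.81 in KO, -1.21 in control, -2.39 in induced and -2.05 in non-induced cells, from 5 probes.

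Beyond the 1838 ends of runs, the next bin was late on 3 arrays in 780 cases (42.4%), on 2 in 355, on 1 in 196 and on none in 223 (12.1%), and in the other 284 it had under 5 probes. Across the edges of the 134 longer runs, timing in the third bin inside averaged -1.29 in KO and -0.96 in control cells, and -1.61 in induced and -1.11 in non-induced cells. In the fifth bin outside it averaged -0.47 in KO and -0.24 in control cells, and -0.59 in induced and -0.30 in non-induced cells. As measured, timing thus climbed by 0.83 in KO and 0.73 in control, and by 1.02 in induced and 0.81 in non-induced cells. The climbs stood in the same order as the ranges of the arrays (2.32 in KO, 1.82 in control, 2.70 in induced and 2.08 in non-induced cells). They were not scaled, so they do not show steeper edges on any array. Timing remained below 0 on average up to 1900 kb away on every array. Only 27.1% of bins at the fifth position outside were above 0 on all arrays. The rule itself sets the position of the edge and part of the step there.

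**Figure D4:**
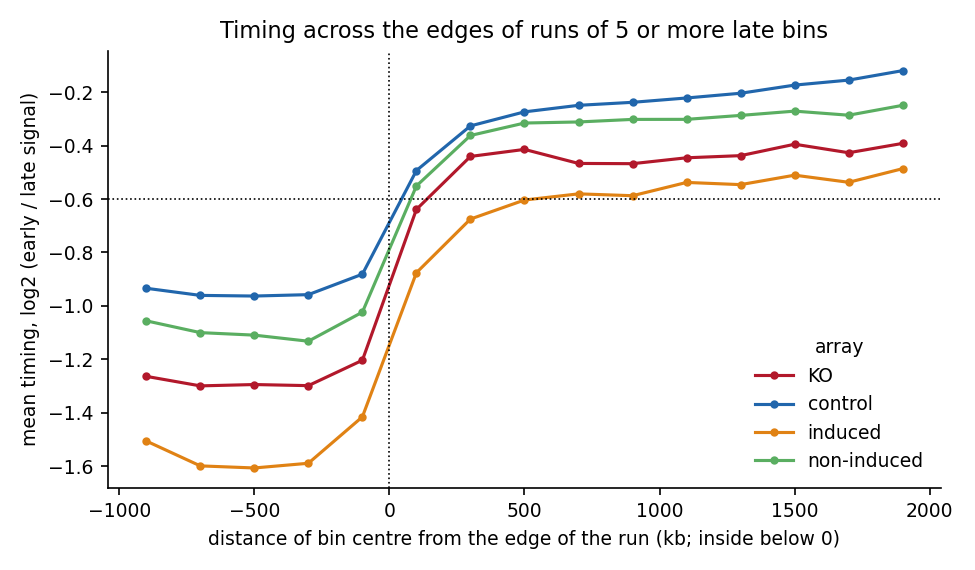
Mean timing (log2 of early over late signal) per array by distance of the bin centre from the edge of runs of 5 or more late bins, inside the run below 0 kb and outside above it; the dotted horizontal line marks -0.6. From the third bin inside to the fifth outside the mean climbs by 0.83 in KO, 0.73 in control, 1.02 in induced and 0.81 in non-induced cells. It stays below 0 on all arrays. Values are as measured, on arrays of unlike range.

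The first comparison the design implies is that of KO with control cells. Members averaged -1.23 in KO and -0.90 in control cells, a difference of -0.34 ± 0.27 (SD over bins), and the KO value was the lower in 2213 of 2484 members (89.1%, against 64.3% of all bins). After each array was scaled to the same range this held in 62.9% of members and 66.2% of all bins. A difference of 0.5 or more, which is 1.41-fold in the ratio, towards later replication was seen in 672 members (27.1%), against 23.1% of all autosomal bins, and towards earlier replication in 0 members, against 7.28% of all bins. A share of 27.1% is near the background, and the bins of the neither class had 28.6% later. Once arrays were scaled to the same range, members averaged -1.19 in KO and -1.10 in control cells, a difference of -0.08 ± 0.28, with 159 later by 0.5 (6.40%, against 18.9% of all bins) and 61 earlier (2.46%, against 8.18%). Early bins then differed by -0.23, where they had differed by 0.01 as measured. On either scale the members had no higher share of later bins than the neither class. The rule itself shapes these shares, since it asks for late timing in both KO and control cells. The 827 bins that missed on control alone were late in KO and fell in the neither class. As measured, a member earlier in KO by 0.5 needs control at least 0.5 below the threshold. The shares therefore cannot show whether late domains differed more or less than other DNA. The size of the members' difference depended on how the arrays were scaled.

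The second comparison is that of induced with non-induced cells. Members averaged -1.46 in induced and -1.06 in non-induced cells, a difference of -0.41 ± 0.26 (SD over bins), with the induced value the lower in 2367 members (95.3%, against 62.1% of all bins). After scaling this held in 60.1% of members and 67.6% of all bins. Later by at least 0.5 were 855 members (34.4%), against 18.8% of all bins, and 0 were earlier by as much, against 0.689% of all bins. Bins early on all arrays differed in the other direction, by 0.18 on average, so the late and early ends of the range were both farther from 0 in induced cells. After scaling, members averaged -1.21 in induced and -1.14 in non-induced cells, a difference of -0.07 ± 0.23. Then 95 members (3.82%) were later by 0.5, against 5.49% of all bins, and 6 (0.242%) were earlier, against 0.203%. The excess of later bins among members was therefore present as measured and absent after scaling. The rule shapes these shares too, as it asks for late timing in both induced and non-induced cells.

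**Figure D5:**
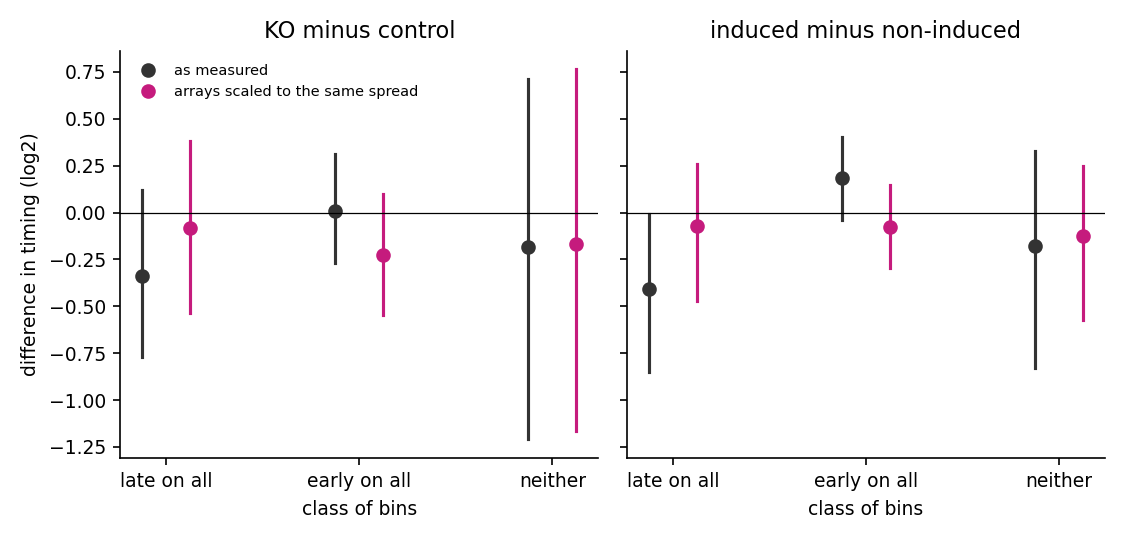
Difference in timing (log2) of KO minus control and of induced minus non-induced, for bins late on all arrays, early on all arrays and neither, as measured and with arrays scaled to the same range. Points are means and lines span the 5th to 95th percentile over bins. Late bins averaged -0.34 and -0.41 as measured and -0.08 and -0.07 after scaling.

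How many members had both differences below 0 depended on the scale. As measured they were 2113 (85.1%, against 45.9% of all bins), and after scaling 1008 (40.6%, against 46.5% of all bins). At 0.5 or more, 324 members (13.0%, against 11.3% of all bins) were later in both comparisons. These were 48.2% of the members later in KO and 37.9% of those later in induced cells. Over all bins, 1273 were later in both, of 2612 later in KO and 2125 later in induced cells. After scaling, 24 members (0.966%, against 3.66% of all bins) were later in both. These were 15.1% of the members later in KO and 25.3% of those later in induced cells. Over all bins 414 were then later in both, of 2141 later in KO and 621 later in induced cells. The comparisons share no array, yet all 4 arrays chose the members. The differences correlated with r = 0.23 over the 2484 members (0.20 after scaling), and neighbouring bins are not independent. All 19 autosomes had negative mean differences for members in both comparisons, as measured and after scaling. The mean over all bins was negative too, at -0.18 for KO minus control and -0.16 for induced minus non-induced as measured. After scaling the means over all bins were -0.16 and -0.11 in that order, more negative than those of the members (-0.08 and -0.07). As measured, KO minus control ran from -0.45 on chromosome 16, with -1.30 in KO and -0.85 in control cells, to -0.27 on chromosome 8, with -1.21 in KO and -0.94 in control cells. Induced minus non-induced ran from -0.45 on chromosome 4, with -1.45 in induced and -1.0025 in non-induced cells, to -0.34 on chromosome 11. After scaling the autosomal means lay between -0.21 on chromosome 16 and -0.0031 on chromosome 8 for KO minus control, and between -0.12 on chromosome 4 and -0.0088 on chromosome 19 for induced minus non-induced. For scale, the non-induced and control arrays, which lie on different slides, differed by -0.16 ± 0.25 in the members (non-induced minus control, SD over bins), and by -0.04 ± 0.28 after scaling.

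Induced minus non-induced was more negative in later members, while KO minus control changed little with lateness. Members were ranked by the mean of the pair of arrays that the difference does not use and cut in 4 groups of 621. From the latest to the least late group, induced minus non-induced averaged -0.51, -0.42, -0.37 and -0.32, and after scaling -0.14, -0.08, -0.05 and -0.01. KO minus control averaged -0.36, -0.33, -0.34 and -0.32 in the same order, and after scaling stayed between -0.09 and -0.08. The order of the induced differences was the same on both scales.

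Among the 134 longer runs, KO minus control was below 0 in 131 (93 after scaling) and induced minus non-induced in all 134 (112 after scaling). The mean over all bins was below 0 as well, in both comparisons and on both scales. The most negative KO minus control difference was in chr10:123400001-124400000, which averaged -1.71 ± 0.10 in KO and -0.73 ± 0.06 in control cells and so differed by -0.98 ± 0.08 (SE over 34 probes; -0.75 after scaling). Induced was also later there, at -1.54 against -0.87 in non-induced cells. The runs next in order were chr1:56200001-57400000 (-0.70), chr10:128800001-130000000 (-0.63), chr2:95200001-97000000 (-0.62) and chr6:11600001-12600000 (-0.62), which kept their sign after scaling, at -0.48, -0.34, -0.35 and -0.36 in the same order. At the other end stood chr3:148400001-149400000, with -1.09 ± 0.07 in KO and -1.14 ± 0.05 in control cells, a difference of 0.05 ± 0.06 as measured and 0.35 after scaling. As measured, KO and control were also within 1 SE of the difference over probes in chr18:13800001-15000000 (0.05), chr13:77200001-78400000 (0.01), chr1:145200001-146200000 (-0.0016) and chr14:71800001-72800000 (-0.05). After scaling, KO was above control in these runs too, by 0.31, 0.31, 0.25 and 0.20 in the same order.

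For induced minus non-induced the most negative run was chr4:30200001-31400000, at -1.82 ± 0.13 in induced and -1.02 ± 0.08 in non-induced cells, which differ by -0.79 ± 0.11 (SE over 44 probes; -0.40 after scaling). It was followed by chr2:62600001-63600000 (-0.72), chr9:5200001-6400000 (-0.71), chr10:105600001-106800000 (-0.68) and again by chr10:123400001-124400000 (-0.67). After scaling these were -0.29, -0.41, -0.35 and -0.34 in the same order. The run with the difference nearest to 0 as measured was chr17:81800001-83000000, at -1.07 ± 0.07 in induced and -1.05 ± 0.06 in non-induced cells, a difference of -0.02 ± 0.04, where KO minus control was -0.37 ± 0.07. After scaling, induced was above non-induced there by 0.24. Next to it as measured stood chr11:17000001-18000000 (-0.11), chr14:71800001-72800000 (-0.13), chr13:20200001-21200000 (-0.18) and chr4:9200001-10600000 (-0.19), and these turned to 0.20, 0.23, 0.10 and 0.097 after scaling. As measured, only chr14:71800001-72800000 was at this end of both lists, and only chr10:123400001-124400000 at the negative end of both.

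The channels of the arrays differed in the members. Relative to the median autosomal probe of its channel, the early signal of members was -0.78 in KO and -0.20 in control cells, and -0.97 in induced and -0.79 in non-induced cells (log2). Their late signal was 0.37 in KO and 0.67 in control cells, and 0.48 in induced and 0.32 in non-induced cells. Lateness on the KO array therefore stood mainly in a low early signal and on the control array mainly in a high late signal. In members both signals were lower in KO than in control, by -0.58 early and -0.30 late, while induced differed from non-induced by -0.18 early and 0.16 late. Control also stood apart in summed brightness, with both channels together at 0.27 above the median in members, against -0.14 in KO, -0.17 in induced and -0.25 in non-induced cells. The part of brightness in the differences was not tested. Early signal was well above background for 92.1% of member spots in KO and 98.4% in control cells, and for 81.0% in induced and 92.3% in non-induced cells, and late signal for 98.6% or more on each array. The SE of a member's timing over its probes was 0.15 in KO and 0.11 in control cells, and 0.18 in induced and 0.13 in non-induced cells.

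The rule leaves the members a narrow range, and within it the arrays resembled each other less than across all bins. Over the 2484 members, induced and non-induced timing correlated with r = 0.63, KO and control with 0.38, KO and induced with 0.34, control and induced with 0.33, control and non-induced with 0.29, and KO and non-induced with 0.13. Over all 11314 bins these correlations were 0.83 to 0.96. Odd and even probes of the same array were compared over the 2159 members with at least 3 probes in each set. They correlated with r = 0.50 in KO, 0.30 in control, 0.43 in induced and 0.43 in non-induced cells. The order of single members within an array was thus poorly fixed when read from part of their probes. Each set holds fewer probes than the full bin, so these values are not comparable with those between arrays. These are correlations over bins of shared arrays and probes, given with no test.

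Members carried fewer probes than other bins, a property of the array design that the rule did not use beyond its minimum. The median was 11 probes for late bins, 18 for bins early on all arrays and 15 for the neither class, and late bins had the lower median on all 19 autosomes. Neighbouring probes were 11954 bp apart in late bins at the median, against 9889 bp in early bins and 10802 bp in the neither class. Probes shorter than 60 bases, the full length on this array, made up 2.96% in late, 5.58% in early and 4.36% in the neither class, and were rarer in late bins on 17 of 19 autosomes. The share of bins called late went with probe number, from 32.2% of bins with 5 to 9 probes to 13.2% of those with 20 or more. Bins with 5 to 9 probes also gave the more negative differences, -0.36 for KO minus control and -0.43 for induced minus non-induced, against -0.31 and -0.39 in bins with 20 or more. After scaling these were -0.10 and -0.091 in bins with 5 to 9 probes, against -0.068 and -0.065 in bins with 20 or more. Whether sparse probes or the DNA they lie in go with lateness was not tested. Genes were not placed, as the coordinates of the probes are on build mm9 and no annotation of that build was used here.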

How the data were processed

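Early (Cy3) and late (Cy5) S phase DNA was read on 4 arrays of 2 colours, 1 for each group. Per the file headers, the deposited processed signals are intensities from Agilent Feature Extraction 11.5.1.1 (version 9.1 per the submitters' processing notes), after background subtraction and dye scaling, and the flags are other columns, deposited as 0 or 1. The log10 ratio deposited by the authors is late over early. Its sign was turned for use as an alternative, and the deposited value table held equal log10 values in all 174305 genomic spots of each array. Probe coordinates are mm9, per the file headers.

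Control spots and outlier-flagged spots were removed, repeated spots of 1 probe averaged, arrays centred on their autosomal median, and 160967 autosomal probes assigned to 200 kb bins by their midpoint. No loess or quantile step was applied. Bins needed 5 probes. Scaling divided each array by its 10th to 90th percentile range and multiplied it by the mean range. Regions named are the 12 longest and 12 latest runs (at least 3 bins), 5 bins on each side of the threshold and the 5 most extreme runs of at least 5 bins in each direction and comparison; runs joined across a bin and single latest bins were added after values were seen. The rule was tested on simulated data. The domains and the lists were chosen with earlier results of these data known. Alternatives changed flags, dim probes, scale, normalization, background, bin size, probe minimum, centre, probes, threshold and the arrays used. Gene density and olfactory receptor genes were planned and not analysed here, since the gene table at hand is on another build. Python 3.11.15, numpy 2.4.6, pandas 2.3.3, matplotlib 3.10.9, R 4.3.3 and limma 3.58.1 (loess, quantile, normexp with offset 50) were used.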

Additional observations from a re-analysis of the deposited data

Results flagged for a closer look

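In 3 runs of at least 5 bins the KO array was level with or slightly above control while the induced array was below non-induced, as measured. Induced minus non-induced was below 0 in all 134 runs of this length, and KO minus control in 131. In chr3:148400001-149400000 KO minus control was 0.048 and induced minus non-induced -0.428. In chr18:13800001-15000000 the differences were 0.046 and -0.488, and in chr13:77200001-78400000 they were 0.008 and -0.333. The difference between the comparisons was not tested, since each group had 1 array. The KO minus control values were smaller than their SE over probes, which was 0.06 in the first, 0.05 in the second and 0.05 in the third run. They therefore give no direction. After arrays were scaled to the same range KO minus control was 0.35, 0.31 and 0.31, and induced minus non-induced was -0.06, -0.11 and 0.07 in the same order. In the third run both were then above 0.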

How the results depend on the processing

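Precision was limited by 1 array in each group. The count of late bins, 2484, lay between 2176 and 2783 with flagged spots kept, dim probes left out, loess, the deposited log ratio, 3 probes or arrays scaled. There were 2712 late bins of 100 kb and 1301 of 400 kb. These counts cannot be set against 2484, as such bins cover other lengths of DNA. The count was 1441 with 10 or more probes and 1450 with arrays centred on the median bin. It was 1408 with odd and 1448 with even probes only. At a threshold of -0.4 it was 3447, at -0.5 2988, at -0.8 1348 and at -1.0 462. Normexp left 1752 bins, of which 1702 were members, while scaling gave 2783 with 2437 members and quantile normalization 2834 with 2384. The rule without the control array gave 3311 bins, without KO 2720, without non-induced 2760 and without induced 2495.

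Mean KO minus control in late bins, -0.34 as measured, was -0.12 with bins chosen after scaling and -0.084 in the same bins scaled. It was -0.14 with normexp and -0.18 with arrays centred on the median bin. With quantile normalization, which gives all arrays 1 distribution, it was near 0 and reversed in sign, at 0.015. The other 11 alternatives gave -0.34 to -0.31. Mean induced minus non-induced, -0.41 as measured, was -0.34 with only probes well above background and with loess. It was -0.087 with bins chosen after scaling and -0.070 in the same bins scaled. Normexp gave -0.18 and arrays centred on the median bin -0.24. With quantile normalization this difference was near 0 too, at -0.00097. It was below 0 in all 16 alternatives, though the quantile value is too close to 0 for its sign to count. Median probes per bin were 21 with 400 kb bins, and 9 to 11 otherwise. The median run was 0.2 Mb with 100 kb bins, 0.8 Mb with 400 kb bins and 0.2 Mb at a threshold of -1.0. Bin size sets the smallest run. Other causes were not tested. The planned gene counts were not run. No paired analysis was possible because each group had 1 array.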

Other observations

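Chromosome X lies outside the rule, which covers autosomes. Of its 686 measured bins, 199 (29.0%) were at or below -0.6 on all 4 arrays and 0 were at or above 0.6 on all. These 199 bins averaged -1.17 in KO and -0.92 in control cells, and -1.48 in induced and -1.01 in non-induced cells. Their mean differences were -0.25 for KO minus control and -0.47 for induced minus non-induced, outside the autosomal ranges of both comparisons. After scaling the differences were 0.0091 and -0.14, also outside those ranges. These bins had a median of 12 probes, as had the other bins of X.

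The minimum of 5 probes kept 508 autosomal bins out, which have 1 to 4 probes. Of these, 153 (30.1%) were at or below -0.6 on all 4 arrays by the probes they have. In 51 cases such a bin lay between a pair of members, and in 38 of the 51 it was late on all arrays too, so that some of the breaks between runs stand at bins with few probes.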
